A study of Caenorhabditis elegans with 6 samples.

Results

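Helitrons and palindromic (PAL) repeats were followed through 22G-RNA counts in *Caenorhabditis elegans* that lack LOTR-1, a germ granule protein with LOTUS and Tudor domains. Of 151 transposon family entries among 22336 counted loci, 36 were taken by name, namely those containing Helitron, NDNAX or PAL and neither starting with Tc, CER or CELE nor containing LTR. They comprised 7 Helitron and 29 PAL entries, and 0 entries carried the name NDNAX. The mutant, *lotr-1(sam117)* I in strain RFK1256, is a single deletion allele that removes all of the coding sequence, and it was set against wild-type N2. Each genotype was represented by 3 libraries of whole gravid adults, collected 65 hours after arrested L1 larvae were plated, and all RNA was treated with the pyrophosphohydrolase RppH. No label says whether the replicates came from separate cultures, so p-values measure the spread between these libraries, which may be technical.

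22G-RNAs are made by RNA-dependent RNA polymerases, which copy a target transcript into short antisense RNAs that begin with G and are loaded onto WAGO-class or CSR-1 Argonautes. In the germline the WAGO-class 22G-RNAs are known for silencing transposons and other foreign sequence, and their production is linked to Mutator foci and to the adjoining Z granules, where LOTR-1 resides. Helitrons are DNA transposons that move by rolling-circle replication, with a protein that joins a replication initiator to a helicase, and they lack the terminal inverted repeats of cut-and-paste elements. Palindromic families are repeats whose sequence reads as an inverted repeat, so that a transcript through one copy can fold back on itself. The counts describe small RNAs assigned as antisense to these repeats, not transcripts of the repeats or their movement. A read from an arm of an inverted repeat can also match the other arm, on the opposite strand. At PAL entries the strand assignment is therefore less certain. No cell type marker can be read from the counts. A lower count can mean fewer germ cells or fewer 22G-RNAs per cell, which cannot be told apart in whole animals.

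Total counts per library were 3368618 to 3810890 in *lotr-1(sam117)* and 3150716 to 3829101 in wild-type, so that 3 counts, taken as the floor, were 7.83e-05% to 9.52e-05% of a library. The deleted gene, *lotr-1* (WBGene00008385), had 40, 49 and 60 antisense counts in the mutant libraries against 477, 522 and 563 in wild-type, and all 6 libraries matched their labels. The counts left in the mutant lie above the floor, and where in the gene they map was not examined. Genotypes were compared by a DESeq2 test against a 2-fold change. An entry is said to have risen or fallen when its Benjamini-Hochberg adjusted p-value was below 0.1. Past 2-fold means past this test, so an entry not past 2-fold can still have an estimate above 2-fold. Median-of-ratios size factors (normalized counts) were used, and scaling to equal totals (CPM, counts per 1000000 22G-RNA counts of a library) was run beside them. The scaling matters here. Over the 8789 loci averaging 10 or more normalized counts, log2 fold changes had their median at -0.05 under size factors and at -0.84 under equal totals, and this shift of -0.79 lowers every fold change below by about that amount.

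22G-RNAs rose at all 7 Helitron entries and at 9 of 28 tested PAL entries in *lotr-1(sam117)*, and they fell at 1 PAL entry, NPALTA1_CE. Among all 11682 tested loci, 8.15% rose and 8.14% fell. The median log2 fold change was 1.97 over the Helitron entries and 1.20 over the tested PAL entries, against 0.04 over all tested loci. With total-count scaling, 3 Helitron and 3 PAL entries were past the threshold upwards and NPALTA1_CE downwards. There, 4.26% of all tested loci rose and 20.0% fell. The medians were then 1.18 for Helitron entries, 0.41 for tested PAL entries and -0.75 for all tested loci.

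The entries were also read from a DESeq2 test against no change, added after the data were seen. With size factors 26 of the 36 entries were higher and 2 were lower in *lotr-1(sam117)*, against 20.4% and 22.7% of the 13386 tested loci. Estimates were above 2-fold for 22 of the 26, and for 1935 of the 2726 higher loci in all. With total-count scaling 21 were higher and 6 lower, against 9.22% and 46.7% of the 14068 tested loci. Across both scalings 21 entries were higher each time, all 7 Helitrons among them, and 2 were lower each time (NPALTA1_CE and PAL8C_1). Such joint counts were not taken over all loci, where they cannot exceed 1297 higher and 3039 lower, the smaller counts under a single scaling. For PALTA3_CE the direction turned with the scaling.

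**Figure D1:**
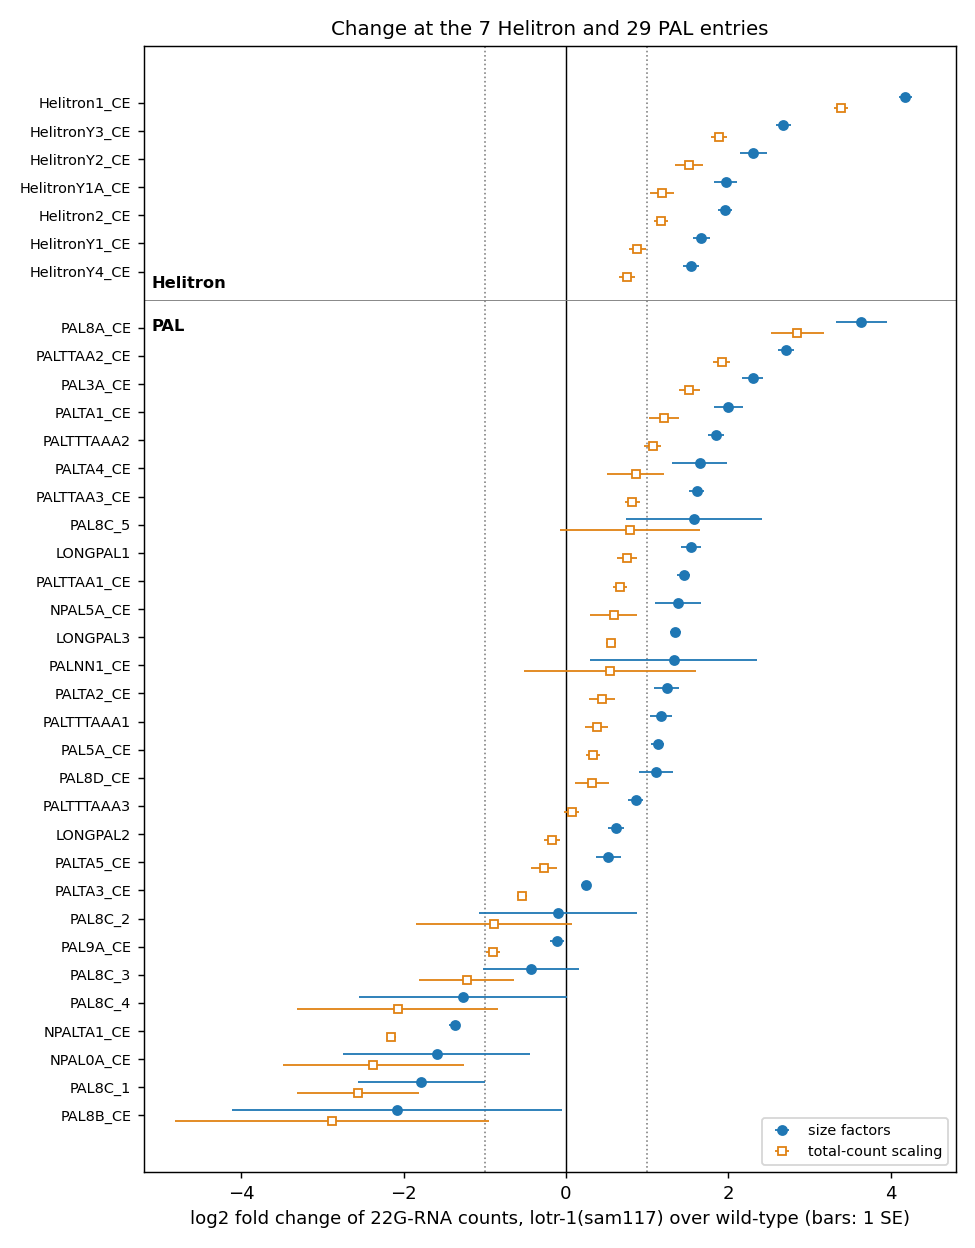
Log2 fold change of 22G-RNA counts (*lotr-1(sam117)* over wild-type) at each of the 36 entries, under size factors (filled circles) or total-count scaling (open squares). Bars are 1 SE and dotted lines mark 2-fold. All 7 Helitron entries lie right of 0 under both scalings, whereas PAL entries lie on both sides.

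Helitron1_CE showed the largest change among the 36 entries. It had 2167, 2368 and 2120 counts in the mutant libraries, against 181, 234 and 212 in wild-type. This was 629.7 ± 11.8 CPM in *lotr-1(sam117)* and 60.2 ± 6.60 CPM in wild-type (SD, n = 3 each). The log2 fold change was 4.18 (SE 0.0796), an 18.1-fold rise with an adjusted p-value below the smallest number that DESeq2 can represent. It was 3.39 with total-count scaling (adjusted p = 8.28e-189).

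Among Helitrons, HelitronY3_CE followed, with 843, 923 and 946 counts in the mutant libraries against 187, 258 and 281 in wild-type. Its log2 fold change was 2.68 (SE 0.0963, adjusted p = 1.93e-66), and 1.89 with total-count scaling (adjusted p = 2.01e-17). The least abundant of the Helitrons, HelitronY2_CE, had 284, 269 and 264 counts in the mutant against 85, 116 and 79 in wild-type. Its log2 fold change was 2.31 (SE 0.164, adjusted p = 1.96e-14), and 1.52 with total-count scaling (adjusted p = 0.0109). These 2 entries and Helitron1_CE were the Helitrons that rose past 2-fold under both scalings.

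The other 4 Helitrons rose past 2-fold with size factors only. HelitronY1A_CE, the entry with the highest mean CPM in the mutant, had 1899, 2888 and 2523 counts in the mutant and 884, 1091 and 1214 in wild-type, and mutant replicate 1 was the lowest of its group, at 564 CPM against 758 and 743 CPM. Its log2 fold change was 1.97 (SE 0.140, adjusted p = 8.44e-11), or 1.18 with total-count scaling (adjusted p = 0.708). Helitron2_CE had 1142, 1283 and 932 counts in the mutant and 442, 462 and 567 in wild-type, with mutant replicate 3 the lowest of its group. Its log2 fold change of 1.96 (SE 0.0893, adjusted p = 1.28e-25) differed from that of HelitronY1A_CE by less than either SE, and it was 1.17 with total-count scaling (adjusted p = 0.206).

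HelitronY1_CE had 674, 877 and 828 counts in the mutant against 317, 446 and 518 in wild-type, a log2 fold change of 1.67 (SE 0.10, adjusted p = 3.02e-10). HelitronY4_CE had 502, 580 and 531 counts in the mutant against 257, 338 and 352 in wild-type, a log2 fold change of 1.54 (SE 0.0976, adjusted p = 3.31e-07). Under equal totals these entries stood at log2 fold changes of 0.88 and 0.75, neither past 2-fold, although both passed the test against no change (adjusted p = 2.98e-16 and 4.66e-13). At every one of the 7 Helitrons the lowest mutant library lay above the highest wild-type library, both as normalized counts and as CPM. The share of all loci that separated in this way was not counted, so the separation does not set the Helitrons apart.

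**Figure D2:**
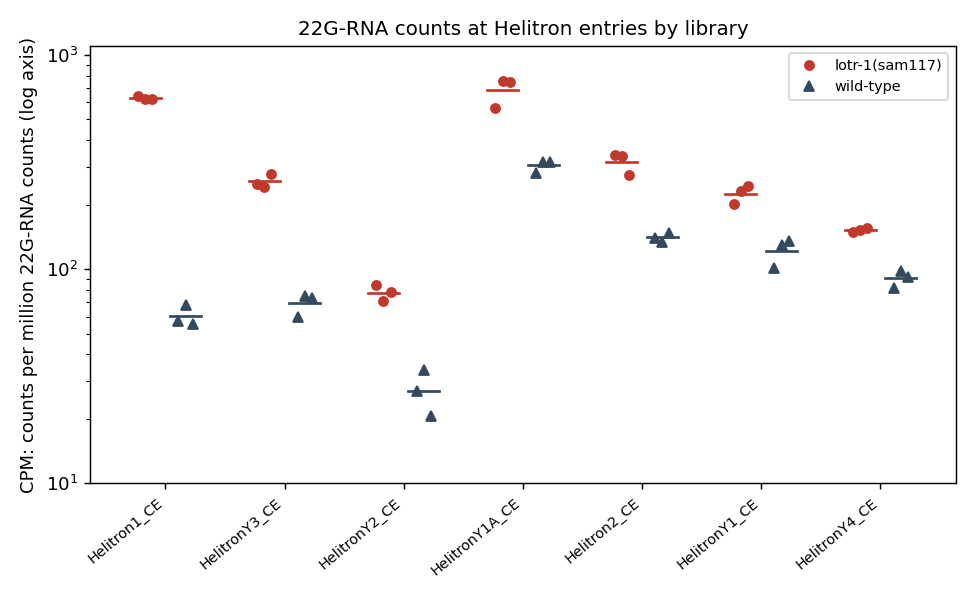
22G-RNA counts as CPM (log axis) at the 7 Helitron entries in each library, with *lotr-1(sam117)* as circles and wild-type as triangles, and group means as lines. The gap between the genotypes is widest at Helitron1_CE (629.7 CPM in the mutant, 60.2 CPM in wild-type).

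Among the Helitrons the order of abundance changed as well. Helitron1_CE held 26.9% ± 1.71 of the Helitron counts in *lotr-1(sam117)* and 7.41% ± 0.728 in wild-type, whereas HelitronY1A_CE held 29.2% ± 3.43 in the mutant and 37.4% ± 0.334 in wild-type (SD, n = 3 each). The ratio of Helitron1_CE to Helitron2_CE counts, in which no scaling enters, was 1.90, 1.85 and 2.27 in the mutant libraries against 0.410, 0.506 and 0.374 in wild-type. HelitronY1A_CE to HelitronY1_CE, whose names place them closest to each other, gave 2.82, 3.29 and 3.05 in the mutant and 2.79, 2.45 and 2.34 in wild-type. These mutant and wild-type values nearly meet, at 2.82 and 2.79. The ratios within libraries here and below were chosen after the values were seen and were not tested. Reads that fit several copies were placed at random, so counts of related entries can be exchanged.

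The PAL entries were then described by name. The PALTA group of 6 entries held both directions. NPALTA1_CE, the most abundant PAL entry on average and the sole entry of the 36 to fall past 2-fold, had 597, 776 and 655 counts in *lotr-1(sam117)*, against 2743, 2963 and 3183 in wild-type. It stood at 191 ± 13.3 CPM in the mutant and 853 ± 20.0 CPM in wild-type (SD, n = 3 each). The log2 fold change was -1.37 (SE 0.0637, adjusted p = 1.02e-07), and -2.15 with total-count scaling (adjusted p = 5.15e-82).

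In contrast, PALTA1_CE had 182, 207 and 234 counts in the mutant and 72, 109 and 85 in wild-type, a log2 fold change of 2.00 (SE 0.176, adjusted p = 1.51e-07). This was 1.21 with total-count scaling, an estimate still above 2-fold but no longer past the test against 2-fold (adjusted p = 0.753). Within libraries, the ratio of NPALTA1_CE to PALTA1_CE was 3.28, 3.75 and 2.80 in *lotr-1(sam117)*, against 38.1, 27.2 and 37.4 in wild-type. PALTA3_CE had 1103, 1216 and 1082 counts in the mutant and 1526, 1529 and 1835 in wild-type, and the sign of its log2 fold change turned from 0.25 (SE 0.0638) with size factors to -0.54 (SE 0.0599) with total-count scaling. Each value passed the test against no change (adjusted p = 4.75e-04 and 9.66e-19) and neither passed 2-fold. NPALTA1_CE to PALTA3_CE gave 0.541, 0.638 and 0.605 in the mutant against 1.80, 1.94 and 1.73 in wild-type, so these abundant PALTA entries exchanged their order.

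Of the other PALTA entries, PALTA5_CE had 143, 189 and 189 counts in the mutant and 160, 237 and 223 in wild-type. Its log2 fold change was 0.52 under size factors but -0.27 under equal totals, and the genotypes overlapped as CPM. PALTA2_CE (log2 fold change 1.24, SE 0.156) and PALTA4_CE (1.65, SE 0.337) were not past 2-fold (adjusted p = 0.583 and 0.281). Their counts were 157 to 192 and 39 to 47 in the mutant libraries, against 108 to 149 and 19 to 29 in wild-type.

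All 3 PALTTAA entries rose. PALTTAA2_CE had 682, 740 and 734 counts in *lotr-1(sam117)* against 157, 200 and 206 in wild-type, a log2 fold change of 2.71 (SE 0.101, adjusted p = 2.09e-62), and 1.92 with total-count scaling (adjusted p = 3.30e-17). It was the one entry of the group to rise under both scalings. PALTTAA3_CE had 751, 883 and 881 counts in the mutant against 380, 508 and 522 in wild-type (log2 fold change 1.61, SE 0.0875, adjusted p = 4.67e-11). PALTTAA1_CE had 837, 1076 and 926 in the mutant against 478, 586 and 707 in wild-type (1.45, SE 0.0821, adjusted p = 3.60e-07). Total-count scaling gave 0.82 and 0.67 for these, short of 2-fold. Relative to PALTTAA3_CE, PALTTAA2_CE stood at 0.908, 0.838 and 0.833 in the mutant libraries against 0.413, 0.394 and 0.395 in wild-type, so the entries of this group did not move by the same factor.

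Of the 3 PALTTTAAA entries 1 rose. PALTTTAAA2 had 537, 688 and 654 counts in the mutant against 256, 321 and 308 in wild-type, a log2 fold change of 1.85 (SE 0.101, adjusted p = 4.42e-16), and 1.07 with total-count scaling (adjusted p = 1.00). PALTTTAAA1 (log2 fold change 1.17, SE 0.138, adjusted p = 0.940) and PALTTTAAA3 (0.86, SE 0.0951, adjusted p = 1.00) were not past 2-fold, and with total-count scaling they stood at 0.38 and 0.07. The ratio of PALTTTAAA2 to PALTTTAAA3 was 1.29, 1.35 and 1.39 in the mutant and 0.694, 0.707 and 0.630 in wild-type.

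Of the LONGPAL entries 2 of 3 rose. LONGPAL3 had 1386, 1657 and 1471 counts in *lotr-1(sam117)* against 861, 987 and 1172 in wild-type (log2 fold change 1.35, SE 0.0625, adjusted p = 2.04e-07). LONGPAL1 had 300, 367 and 330 in the mutant against 168, 203 and 215 in wild-type (1.54, SE 0.120, adjusted p = 7.33e-05). Total-count scaling gave 0.56 and 0.75, neither past 2-fold. LONGPAL2 had 441, 508 and 514 counts in the mutant against 421, 586 and 622 in wild-type, and its log2 fold change was 0.62 under size factors but -0.17 under equal totals, where the genotypes overlapped.

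**Figure D3:**
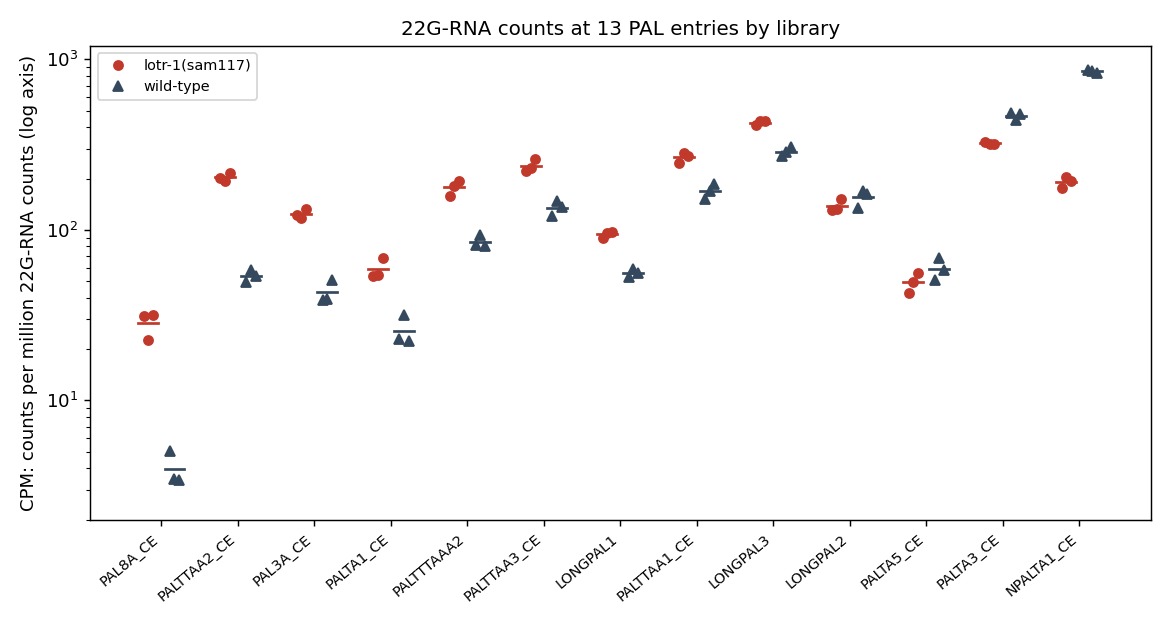
22G-RNA counts as CPM (log axis) in each library at the 10 PAL entries that rose or fell and at LONGPAL2, PALTA5_CE and PALTA3_CE, ordered by log2 fold change. Circles are *lotr-1(sam117)*, triangles wild-type and lines group means. NPALTA1_CE is the highest entry in wild-type (853 CPM) and stands at 191 CPM in the mutant.

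The PAL8 group was mostly sparse. PAL8A_CE had 105, 86 and 108 counts in the mutant against 16, 12 and 13 in wild-type, a log2 fold change of 3.64 (SE 0.314, adjusted p = 7.48e-16), and 2.85 with total-count scaling (adjusted p = 1.35e-07). Only Helitron1_CE had a larger log2 fold change among the 36 entries. PAL8D_CE had 93 to 111 counts in the mutant and 76 to 84 in wild-type (log2 fold change 1.11, SE 0.209, adjusted p = 1.00). PAL8A_CE and PAL8D_CE were about equally abundant in the mutant, with ratios of 1.13, 0.905 and 0.973, against 0.211, 0.143 and 0.171 in wild-type.

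Of the remaining numbered entries, PAL3A_CE rose under both scalings. It had 411, 445 and 450 counts in *lotr-1(sam117)* against 123, 136 and 195 in wild-type, a log2 fold change of 2.30 (SE 0.126, adjusted p = 8.89e-24), and 1.52 with total-count scaling (adjusted p = 5.27e-04). PAL5A_CE (log2 fold change 1.13, SE 0.0842, adjusted p = 0.591) and NPAL5A_CE (1.38, SE 0.281, adjusted p = 0.790) were not past 2-fold. PAL9A_CE had 412 to 466 counts in the mutant against 725 to 934 in wild-type. Its log2 fold change was -0.11 (SE 0.0869) with size factors, where the genotypes overlapped, and -0.90 (SE 0.0854) with total-count scaling, past no change (adjusted p = 5.07e-25) but not past 2-fold.

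At 8 PAL entries the counts were few, and none passed the test against 2-fold under either scaling at this depth. These were NPAL0A_CE (log2 fold change -1.59, SE 1.15), PAL8B_CE (-2.08, SE 2.03), PAL8C_1 (-1.78, SE 0.785), PAL8C_2 (-0.10, SE 0.971), PAL8C_3 (-0.43, SE 0.597), PAL8C_4 (-1.27, SE 1.28), PAL8C_5 (1.58, SE 0.835) and PALNN1_CE (1.33, SE 1.03). They had 0 to 24 counts in a library and means of 1.17 to 10.5 normalized counts, and PAL8B_CE, with 1 count in all in the mutant and 8 in wild-type, received no adjusted p-value in the test against 2-fold. With size factors the summed counts of PAL8B_CE gave a ratio of 0.213 (exact conditional 95% interval 0.00481 to 1.59). For PAL8C_1 the ratio was 0.295 (0.128 to 0.605) and for PAL8C_5 it was 2.99 (1.40 to 6.66). Under equal totals the ratios were 0.123 (0.00278 to 0.920) for PAL8B_CE, 0.171 (0.0740 to 0.35) for PAL8C_1 and 1.73 (0.812 to 3.85) for PAL8C_5. Of all 8 entries, only PAL8C_1 had an interval that left out 1 under both scalings. Under equal totals the intervals of NPAL0A_CE (0.0491 to 0.589), PAL8C_3 (0.246 to 0.735) and PAL8C_4 (0.0569 to 0.712) also lay below 1, but with size factors they included it. Those of PAL8C_2 and PALNN1_CE included 1 under both scalings. The intervals cover counting error only.

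Summed over entries, Helitrons held 0.235% ± 0.0101 of all 22G-RNA counts in *lotr-1(sam117)* and 0.0813% ± 0.00579 in wild-type (SD, n = 3 each), a ratio of 2.88. PAL entries held 0.298% ± 0.0138 in the mutant and 0.307% ± 0.00804 in wild-type, and the libraries overlapped. Without NPALTA1_CE, the PAL sum was 0.279% ± 0.0130 in the mutant and 0.222% ± 0.00966 in wild-type. Leaving out the entry that fell favours a higher mutant sum in itself, and this difference was not tested. NPALTA1_CE made up 6.43% ± 0.345 of PAL counts in the mutant and 27.8% ± 1.31 in wild-type. All 36 entries together held 0.532% ± 0.0232 in the mutant and 0.388% ± 0.0138 in wild-type.

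The ratio of Helitron to PAL counts within a library was 0.787, 0.808 and 0.771 in *lotr-1(sam117)*, against 0.251, 0.273 and 0.270 in wild-type. The difference of the means, 0.524, was far larger than the spread between libraries of a genotype. It is a sum over chosen entries in few libraries, and it was given no p-value. No scaling enters this ratio, but HelitronY1A_CE and NPALTA1_CE weigh in it, and the difference was 0.367 without them.

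**Figure D4:**
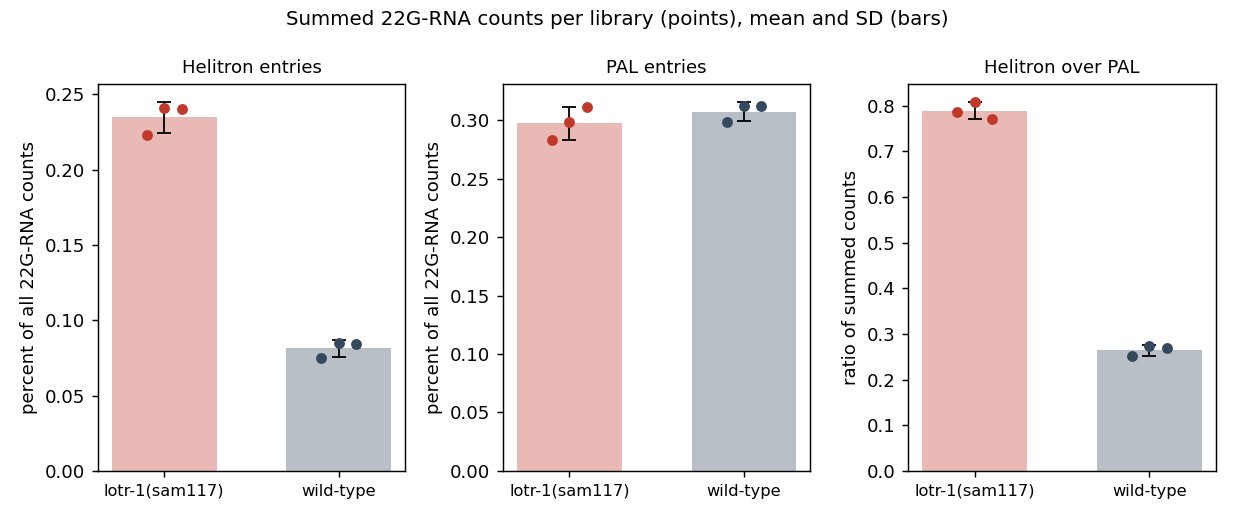
Percent of all 22G-RNA counts at Helitron entries (left) and at PAL entries (middle), and the ratio of their summed counts (right), with *lotr-1(sam117)* beside wild-type. Points are libraries, bars group means and whiskers SD. The Helitron share is 0.235% in the mutant and 0.0813% in wild-type, whereas the PAL shares overlap.

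The 36 entries were set beside the other transposon families. Of the tested entries, 7 of 7 Helitron and 9 of 28 PAL entries rose, against 5 of 9 Tc-named, 19 of 41 CER or LTR, 6 of 15 CELE and 21 of 46 remaining families. Over all 146 tested transposon entries 67 rose, so the PAL share (32.1%) was below and the Helitron share above that of transposons as a whole (45.9%). Under equal totals 3 of 7 Helitron (42.9%) and 3 of 28 PAL entries (10.7%) rose, against 2 of 9 Tc-named, 12 of 40 CER or LTR, 0 of 15 CELE and 10 of 46 remaining families, and 30 of 145 transposon entries in all (20.7%). The levels differed too, with median mean normalized counts of 675 for Helitron, 189.5 for PAL and 1066 for Tc-named entries. Among entries with a mean of at least 100, 7 of 7 Helitron and 8 of 17 PAL entries rose, against 5 of 7 Tc-named, 18 of 30 CER or LTR, 6 of 13 CELE and 21 of 35 remaining families, 65 of 109 transposon entries and 634 of 4070 loci in all. Under equal totals these were 3 of 7 Helitron and 2 of 17 PAL entries, against 28 of 109 transposon entries and 370 of 4070 loci. The mean was taken over both genotypes, so an entry could pass this limit through its mutant libraries alone, which favours rises. HelitronY2_CE (mean normalized counts of 352 in the mutant and 71.1 in wild-type) and PALTA1_CE (268 and 67.1) passed so and rose. PALTA2_CE (228 and 96.4) passed so and did not rise. These shares were not compared by a test, and the part of abundance in them was not tested. In all, the 36 entries held 3.76% ± 0.109 of transposon 22G-RNA counts in *lotr-1(sam117)* and 4.22% ± 0.150 in wild-type (SD, n = 3 each).

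**Figure D5:**
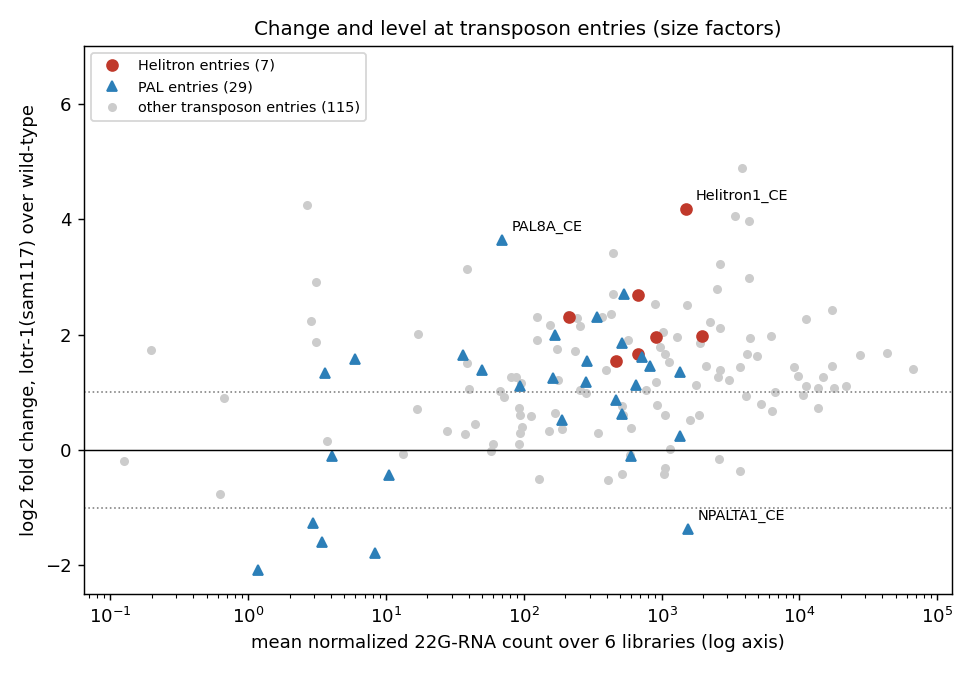
Log2 fold change (*lotr-1(sam117)* over wild-type, size factors) against mean normalized 22G-RNA count (log axis) for the 7 Helitron, 29 PAL and 115 other transposon entries. Dotted lines mark 2-fold. The Helitron entries lie at 1.54 to 4.18, all above the upper line, and of the entries averaging at least 100 only NPALTA1_CE lies below the lower line.

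22G-RNAs antisense to 12 genes that act in transposon silencing were read from the same fit. None of the 12 rose and 1 fell, *rde-8* (WBGene00022620, chromosome IV, 7101379 to 7103261, minus strand, WBcel235), which encodes a ribonuclease that prepares target RNAs for copying by RNA-dependent RNA polymerases. It had 19, 17 and 14 counts in the mutant libraries against 131, 144 and 141 in wild-type, a log2 fold change of -2.29 (SE 0.291, adjusted p = 9.06e-05). With total-count scaling *mut-2*, which encodes a nucleotidyltransferase of the Mutator foci, fell as well (log2 fold change -2.43, adjusted p = 1.57e-06, against -1.64 and adjusted p = 0.148 with size factors). The count of 1 in 12 lower with size factors, and of 2 in 12 with total-count scaling, stands beside 8.14% and 20.0% of all tested loci. The other 10 (*mut-7*, *mut-14*, *mut-15*, *mut-16*, *rde-2*, *rrf-1*, *ego-1*, *prg-1*, *hrde-1* and *wago-1*) did not pass the test against 2-fold under either scaling. Under equal totals the estimates for *rrf-1* (log2 fold change -1.21, adjusted p = 0.147 in that test) and *hrde-1* (-1.03) were nevertheless beyond 2-fold.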

How the data were processed

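Per the paper's methods and the labels, the authors trimmed adapters (cutadapt 2.4), mapped to WBcel235/ce11 by Bowtie 1.2.2 (1 mismatch, a random best position for reads with several) and assigned them with featureCounts 1.6.2. The deposited counts are raw 22G-RNA reads per locus (22 bases, first base G, antisense to an exon or a RepeatMasker transposon). Copies of a family are summed, and whether PCR duplicates (16 cycles) were collapsed is not given in the sources used here. Counting errors do not cover such duplicates.

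All 22336 loci were fitted with DESeq2 1.42.0 in R 4.3.3 (Wald test against an absolute log2 fold change of 1, 10% FDR, independent filtering), which follows the study's 2-fold limit and FDR, and the 36 members were read from that fit. The order is *lotr-1(sam117)* over wild-type. Alternatives were total-count, TMM and gene-only scaling, edgeR 4.0.16 quasi-likelihood tests, other filters, FDR limits of 5% and 1%, each library left out and a replicate block. The scripts were tested on simulated data. Libraries of a genotype differed by a chi-square of 1.40 to 1.87 per degree of freedom, so none was a copy of another. Members and lists were chosen with earlier results of these data known. Counts per library are given for every Helitron, every PAL entry called, the 3 most abundant PAL entries and those of at least 100 mean counts whose sign turned with the scaling. Gene names are from Ensembl release 115. Sequences, copy numbers and positions of the repeats were not used here.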

Additional observations from a re-analysis of the deposited data

How the results depend on the processing

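Total-count scaling called 6 entries higher (3 Helitron, 3 PAL) in place of 16. It turned the log2 fold change from above 0 to below 0 at LONGPAL2 (-0.17), PALTA3_CE (-0.54) and PALTA5_CE (-0.27). A DESeq2 test against no change that kept estimates above 2-fold called 15 PAL entries higher and 2 lower, as did the edgeR test against no change, and the edgeR test against 2-fold called 14 PAL entries higher. Calls over all loci grew in these tests too, with 1935, 1549 and 1253 loci higher in place of 952. With no fold limit, a choice made after seeing the data, 26 entries were higher (19 PAL) and 2 lower, and with total-count scaling 14 PAL entries were higher and 6 entries lower. All 16 rises and the fall of NPALTA1_CE were also called under TMM and gene-only factors, both other filters, both stricter FDR limits and each library left out. The replicate block gave 16 higher and 1 lower, and it changed no call. Deviations of same-numbered libraries correlated at 0.008 to 0.010 over 8789 loci, and those of other pairs at -0.022 to 0.012. Counting error makes up much of these deviations, so such low values cannot tell whether the numbers pair the samples. Leaving out a library moved the log2 fold change of PAL8C_2 between -0.46 and 0.40, and that of PAL8C_1 between -2.69 and -1.20, of PAL8C_4 between -2.74 and -0.54 and of PAL8B_CE between -2.97 and -1.19. Without HelitronY1A_CE and NPALTA1_CE the difference in the share of all 22G-RNA counts was 0.172 percentage points in place of 0.144, and the difference in the ratio of Helitron to PAL counts was 0.367 in place of 0.524. Which scaling tracks the amount in an animal cannot be read from these counts, and at the 8 sparse PAL entries depth limits what can be seen.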
